A study of Mus musculus with 2 samples.

Results

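The genes described here are 9 transcription factors at the core of hematopoietic stem cell (HSC) identity, *Mecom*, *Gata2*, *Runx1*, *Gfi1*, *Gfi1b*, *Hlf*, *Meis1*, *Tal1* and *Lmo2*. They were chosen by name, and every probe of the array carrying one of the 9 gene names was used, which gave 12 probes for 9 of the 22555 named genes on the array. Bone marrow LT-HSCs (long-term HSCs) of 2-year-old C57BL/6J mice were compared on Agilent expression arrays of 1 colour, with 1 array per genotype. The sample labels give the sorted cells as CD150+, CD48-, Flt3- and CD34- LSK cells (lineage marker-negative, Sca-1+ and c-Kit+), and the methods add CD41-. The p38αΔ/Δ mice carried CAG-CreERT2, a tamoxifen-inducible Cre under a promoter active in most cell types, and p38α fl/fl alleles, and received tamoxifen (TAM) at about 1 year of age, so that deletion was not limited to blood cells. The p38α+/+ controls were age-matched p38α fl/fl mice without Cre that also received TAM, so both groups carried floxed alleles and had been exposed to TAM. The number of mice behind each array is not given in the sources used here.

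In HSCs these factors work largely as assemblies on shared enhancers. Gata2, a zinc finger protein, and Tal1, a basic helix-loop-helix protein that pairs with E proteins, are held together by the adaptor Lmo2 and its partner Ldb1, often next to Runx1 and Ets factors such as Erg and Fli1. Meis1 binds DNA with Hox and Pbx homeobox proteins, Hlf is a leucine zipper factor of the PAR family that marks HSCs, and Gfi1, Gfi1b and the Evi1 product of *Mecom* act mostly as repressors that recruit histone-modifying corepressors.

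The comparison asks whether RNA of these factors differed between aged LT-HSCs with and without p38α. With 1 array per group there is no spread between mice, no p-value can be given and a difference compares 2 arrays. Each value below is a log2 signal relative to the 75th percentile of its own array, so that 0 is the 75th percentile, and each error is the scanner software's technical error of that spot. A gene was called lower or higher where it differed at least 1.5-fold, a fold that sets no error rate.

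The deleted gene was examined first. *Mapk14*, which encodes p38α, has 2 probes on chromosome 17. One read 2.34 ± 0.14 on the p38α+/+ array and 2.31 ± 0.14 on the p38αΔ/Δ array, and the other read 2.08 ± 0.14 and 2.03 ± 0.14. The log2 differences were -0.04 ± 0.20 and -0.05 ± 0.20, each smaller than its error. Neither probe showed a loss of *Mapk14* RNA. The sources used here do not give the deleted exons, so it is not known whether the probes lie within them. The sample is therefore called the array labelled p38αΔ/Δ, and every direction below rests on the labels.

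Sequences are shown for the factors whose probes were lower on the array labelled p38αΔ/Δ. *Mecom* has 3 probes that gave different results, and the following are the first 30 of the 60 bases of each, with mm9 coordinates and with the most downstream probe first.
Mecom probe 1 (chr3:29876185-29876244 for the whole probe, minus strand): cccgcttgaagctttgaaagaaaaatactt
Mecom probe 2 (chr3:30135491-30135550 for the whole probe, minus strand): gttttgtccctggacacatccttgggaagg
Mecom probe 3 (chr3:30445665-30445724 for the whole probe, minus strand): ataaaatgtgcaggtgtgacggacgacttt
*Mecom* also has 2 start sites in the promoter table from RefSeq (GRCm38.p6). These and a start site of *Gfi1*, *Hlf* and *Gata2* are shown from 250 bases before to 50 bases after the start, 5′ to 3′ on the strand of the gene. Capitals mark, on either strand, the letters GATAA (bound by GATA factors), CAGATG (an E-box bound by Tal1), TGACAG (bound by Meis factors) and CCGGAA (bound by Ets factors).
Mecom, upstream start (chr3:30509710-30510009, minus strand): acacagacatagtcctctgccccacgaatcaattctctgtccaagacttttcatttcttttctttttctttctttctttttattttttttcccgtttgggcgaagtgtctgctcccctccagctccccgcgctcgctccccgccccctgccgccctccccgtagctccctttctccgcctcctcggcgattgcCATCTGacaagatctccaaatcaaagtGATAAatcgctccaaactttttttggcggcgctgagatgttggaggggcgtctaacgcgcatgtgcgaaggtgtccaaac
Mecom, internal start (chr3:30013155-30013454, minus strand): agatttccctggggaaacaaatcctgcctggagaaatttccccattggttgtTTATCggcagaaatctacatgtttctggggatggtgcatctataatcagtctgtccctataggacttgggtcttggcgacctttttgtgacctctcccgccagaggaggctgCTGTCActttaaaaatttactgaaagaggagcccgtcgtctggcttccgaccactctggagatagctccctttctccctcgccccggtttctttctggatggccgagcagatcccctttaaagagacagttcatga
Gfi1, downstream start (chr5:107724294-107724593, minus strand): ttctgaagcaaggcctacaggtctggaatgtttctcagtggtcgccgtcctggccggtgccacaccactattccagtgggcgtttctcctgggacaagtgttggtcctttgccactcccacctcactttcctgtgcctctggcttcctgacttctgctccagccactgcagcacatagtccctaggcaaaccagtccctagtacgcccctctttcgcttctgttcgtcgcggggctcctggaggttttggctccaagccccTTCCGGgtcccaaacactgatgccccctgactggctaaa
Hlf (chr11:90390868-90391167, minus strand): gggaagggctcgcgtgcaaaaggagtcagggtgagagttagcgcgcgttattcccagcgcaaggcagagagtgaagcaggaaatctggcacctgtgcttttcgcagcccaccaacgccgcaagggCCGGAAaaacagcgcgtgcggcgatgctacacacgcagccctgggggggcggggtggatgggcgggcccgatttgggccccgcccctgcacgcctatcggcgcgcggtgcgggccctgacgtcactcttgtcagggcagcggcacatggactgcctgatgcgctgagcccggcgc
Gata2, downstream start (chr6:88198414-88198713, plus strand): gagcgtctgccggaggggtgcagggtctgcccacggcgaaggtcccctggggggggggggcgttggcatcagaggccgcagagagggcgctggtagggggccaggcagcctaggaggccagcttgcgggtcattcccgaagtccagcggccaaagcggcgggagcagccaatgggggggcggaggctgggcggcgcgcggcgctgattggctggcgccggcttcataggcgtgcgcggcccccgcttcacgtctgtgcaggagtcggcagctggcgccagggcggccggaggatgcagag

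The promoters share few of these letters. Of the 13 start sites found for 8 of the 9 genes, 4 hold GATAA, which is found in 25.4% of all 32851 promoters of the same length. These are the upstream and internal starts of *Mecom*, *Gfi1b* and the upstream start of *Tal1*. The letters CAGATG occur in 2 of the 13, at *Mecom* and *Tal1*, against 17.2% of all promoters, and TGACAG in 1, at the internal start of *Mecom*, against 19.2%. CCGGAA occurs in 4, at *Gfi1*, *Hlf*, *Meis1* and *Runx1*, against 14.9%. TGTGGT, the letters that Runx factors bind, occurs in 2, at *Runx1* and *Meis1*, against 16.8%, and AATCAC, bound by Gfi1 and Gfi1b, in 2, both starts of *Runx1*, against 10.4%. TTACNTAA, bound by PAR leucine zipper factors such as Hlf, occurs in 0 of the 13 and in 2.32% of all promoters. Neither start of *Gata2* holds any of the 7 motifs. A match describes the letters of these windows and shows no binding, and no motif was found at all 4 of the factors that were lower on the array labelled p38αΔ/Δ.

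Across the 9 factors the brightest probes ran from a 2.71-fold lower signal to no difference. On the array labelled p38αΔ/Δ, 4 of 9 genes were at least 1.5-fold lower (*Mecom*, *Gfi1*, *Hlf* and *Gata2*), against 15.6% of all 17201 genes measured, and 0 were at least 1.5-fold higher, against 12.7%. The other 5 lay between these limits. The median log2 difference over the 9 genes was -0.42, beside -0.03 over all genes, whose lower and upper quartiles were -0.38 and 0.33. By probe, 4 of 12 were at least 1.5-fold lower, against 16.4% of all 40416 probes, and 1 was at least 1.5-fold higher, against 16.6%. On each array all 12 probes were detected well above background. In bulk RNA, fewer cells that express a gene and less RNA per cell cannot be told apart.

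**Figure D1:**
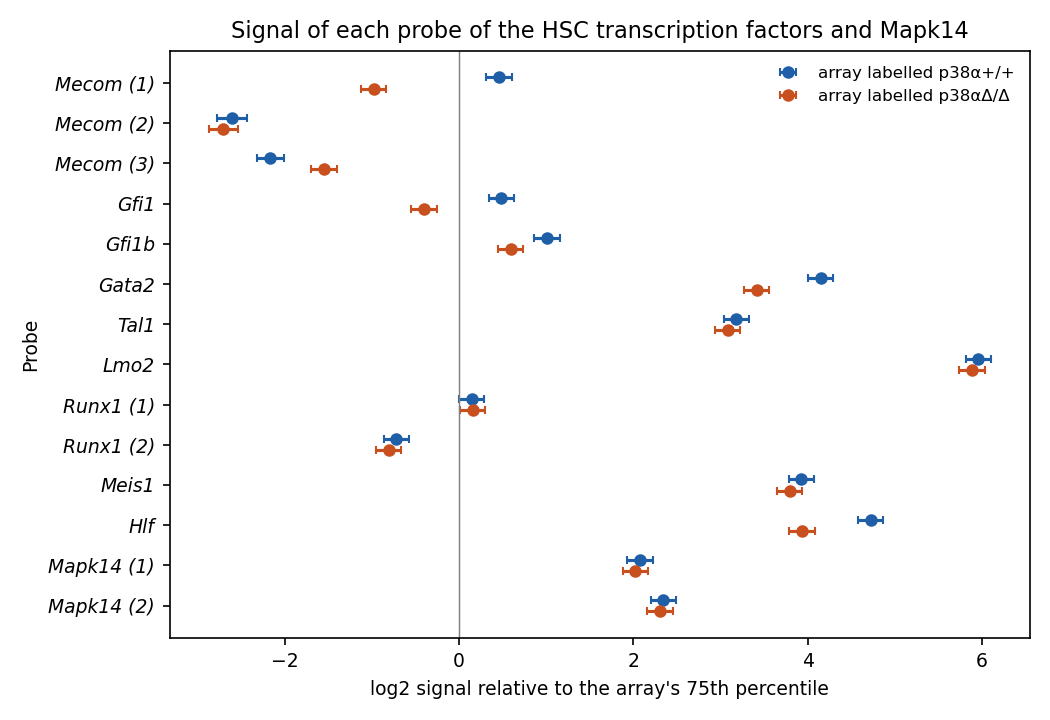
Each row is 1 probe, numbered in order of genome coordinate where a gene has several, and points give the log2 signal relative to the 75th percentile of the array, with bars for the scanner software's error. The points of *Mecom* probe 1, *Gfi1*, *Gata2*, *Hlf* and, less far, *Gfi1b* lie apart with p38αΔ/Δ on the left. Those of *Mecom* probe 3 lie apart with p38αΔ/Δ on the right, and those of *Tal1*, *Lmo2*, *Runx1*, *Meis1* and *Mapk14* overlap.

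Among the repressors, *Mecom* showed the lowest difference of the 9 genes. *Mecom* encodes the zinc finger protein Evi1 and, from its upstream start, the longer Mds1-Evi1 protein, and is needed for long-term HSC maintenance. Probe 1, designed on NM_007963 at chr3:29876185-29876244 (mm9), had a background-corrected signal of 197 for p38α+/+ and 58.4 for the array labelled p38αΔ/Δ. Relative to the 75th percentile these were 0.46 ± 0.14 and -0.98 ± 0.15, a log2 difference of -1.44 ± 0.21, with 36.9% of the p38α+/+ level remaining. Of all measured genes, 3.09% had a lower difference, and of the 2241 genes within 0.5 log2 units of the same brightness, 1.07% did.

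The other probes of *Mecom* did not show this. Probe 2, designed on NM_021442 at chr3:30135491-30135550, lies 259 kb upstream in the direction of transcription. It read -2.60 ± 0.17 and -2.70 ± 0.17, a log2 difference of -0.10 ± 0.24. Probe 3, designed on ENSMUST00000172754 at chr3:30445665-30445724, lies a further 310 kb upstream. It read -2.16 ± 0.15 and -1.55 ± 0.15, a log2 difference of 0.61 ± 0.21 or 1.53-fold higher on the array labelled p38αΔ/Δ. The most upstream probe was thus higher and the most downstream probe lower, and their differences were 2.05 ± 0.30 apart on the log2 scale. Probe 1 differed from probe 2 by 1.34 ± 0.32 in the same way. Probes 2 and 3 were dim, with signals of 23.6 and 17.7 for probe 2 and of 32.0 and 39.4 for probe 3, p38α+/+ first. The call of probe 3 was lost under 3 alternatives, with a log2 difference of 0.55 after a loess between the arrays and of 0.32 and 0.52 after normexp background correction with an offset of 50 and of 0. Averaged over its 3 probes, *Mecom* had a log2 difference of -0.31 and was no longer past 1.5-fold. The probes' coordinates and the printed start sites belong to different genome builds and were not placed against each other.

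**Figure D2:**
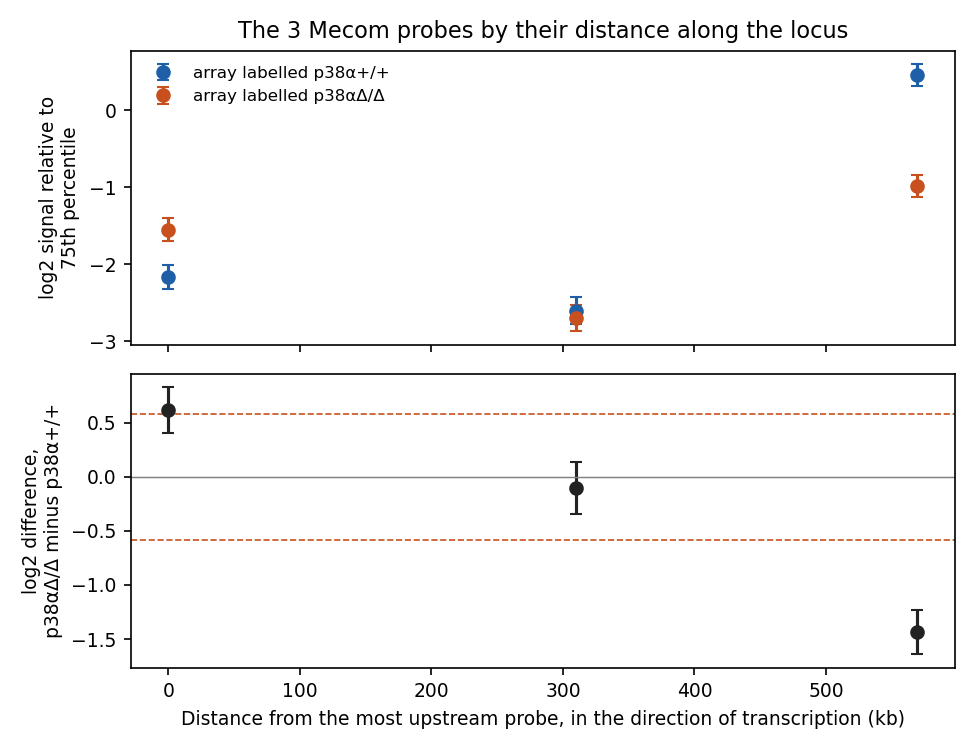
The upper panel shows the log2 signal of the 3 *Mecom* probes relative to the 75th percentile of each array and the lower panel the log2 difference, both against the distance from the most upstream probe in kb, with bars for the scanner software's error and dashed lines at 1.5-fold. From left to right the difference goes from 0.61 at probe 3 to -0.10 at probe 2 and -1.44 at probe 1.

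Of the related repressors *Gfi1* and *Gfi1b*, *Gfi1* was past 1.5-fold lower and *Gfi1b* was not. *Gfi1*, which restrains HSC proliferation and directs granulocyte and lymphoid development, has 1 probe at chr5:108145719-108145778 (mm9). The signal read 201 for p38α+/+ and 87.2 for the array labelled p38αΔ/Δ, or 0.48 ± 0.14 and -0.40 ± 0.15 relative to the 75th percentile. The log2 difference was -0.88 ± 0.21, 1.85-fold lower. Of all measured genes, 8.36% had a lower difference, and of the 2264 genes of similar brightness, 5.61% did. After normexp with an offset of 50 the difference was -0.57, just inside 1.5-fold. *Gfi1b*, which acts in HSC quiescence and in erythroid and megakaryocytic cells, has 1 probe at chr2:28464982-28465041. Its signal was 289 and 174, or 1.01 ± 0.14 and 0.59 ± 0.14. The log2 difference of -0.42 ± 0.20, 1.33-fold lower, did not reach the limit of 1.5-fold, and the gap between the differences of the paralogs was 0.47 ± 0.29.

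Within the Gata2, Tal1 and Lmo2 assembly the difference of *Gata2* was lower than those of *Tal1* and *Lmo2*. *Gata2*, which is needed for the formation and survival of HSCs, has 1 probe at chr6:88156362-88156421 (mm9). The signal read 2549 for p38α+/+ and 1227 for the array labelled p38αΔ/Δ, or 4.15 ± 0.14 and 3.41 ± 0.14 relative to the 75th percentile. The log2 difference was -0.74 ± 0.20, 1.67-fold lower, with 60.0% of the p38α+/+ level remaining. Of all measured genes, 11.2% had a lower difference, and of the 761 genes within 0.5 log2 units of the same brightness, 2.23% did.

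*Tal1*, *Lmo2* and *Runx1* each differed by less than the technical error. *Tal1*, required for blood cell formation, read 3.18 ± 0.14 and 3.08 ± 0.14 at chr4:114744219-114744278, a log2 difference of -0.10 ± 0.20. *Lmo2*, the bridging adaptor, read 5.96 ± 0.14 and 5.89 ± 0.14 at chr2:103821857-103821916, a log2 difference of -0.07 ± 0.20. The difference of *Gata2* was lower than that of *Tal1* by 0.64 ± 0.29 and than that of *Lmo2* by 0.67 ± 0.29. These errors are technical and hold no spread between mice. *Runx1*, which is needed for HSC emergence and for platelet and lymphoid development, has 2 probes. The brighter read 0.15 ± 0.14 and 0.16 ± 0.14 at chr16:92604413-92604472, a log2 difference of 0.01 ± 0.20. The other read -0.72 ± 0.15 and -0.81 ± 0.15 at chr16:92605785-92605844, a log2 difference of -0.09 ± 0.21. Both *Runx1* probes thus differed by less than their error.

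*Hlf* was lower and *Meis1* was not past the limit. *Hlf*, whose expression is close to restricted to HSCs within blood, has 1 probe at chr11:90200696-90200755 (mm9). The signal read 3787 for p38α+/+ and 1761 for the array labelled p38αΔ/Δ, or 4.72 ± 0.14 and 3.94 ± 0.14 relative to the 75th percentile. The log2 difference was -0.79 ± 0.20, 1.73-fold lower. Of all measured genes, 10.1% had a lower difference, and of the 539 genes of similar brightness, 1.48% did. *Meis1*, the cofactor of Hox proteins, read 3.93 ± 0.14 and 3.79 ± 0.14 at chr11:18780695-18780754. Its log2 difference was -0.13 ± 0.20, higher than that of *Hlf* by 0.65 ± 0.29.

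**Figure D3:**
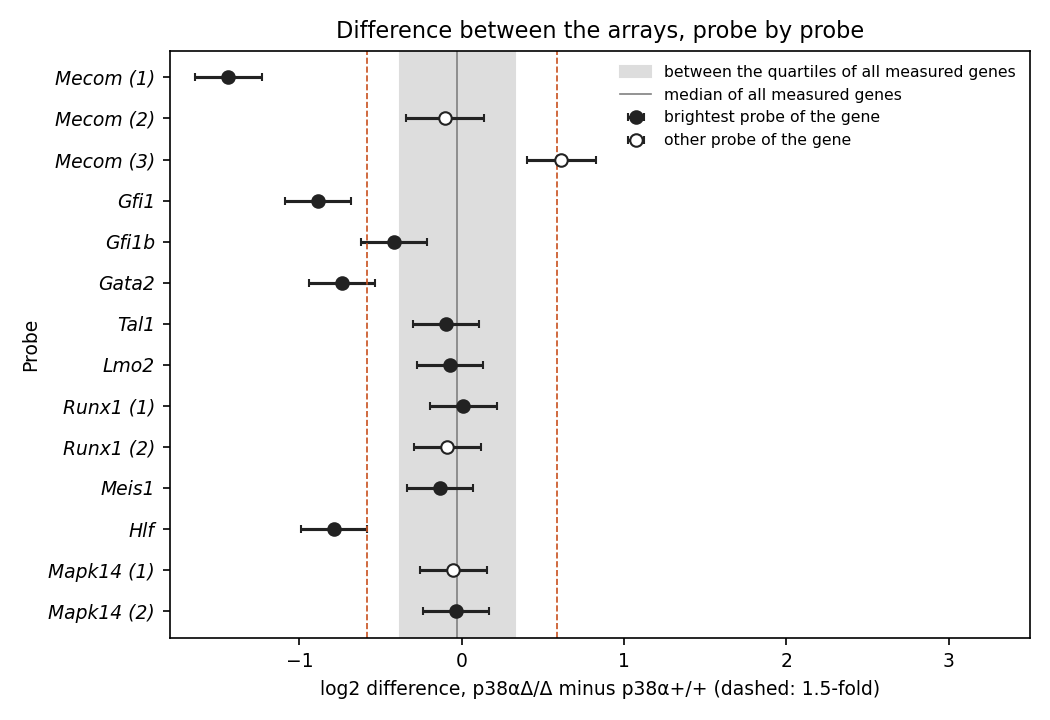
Points give the log2 difference of each probe, p38αΔ/Δ minus p38α+/+, with bars for the scanner software's error, filled for the brightest probe of a gene and open for its other probes, beside the range between the quartiles of all measured genes (grey, -0.38 to 0.33). *Mecom* probe 1, *Gfi1*, *Hlf* and *Gata2* lie beyond the dashed line of 1.5-fold on the lower side, and *Mecom* probe 3 lies just beyond it on the higher side.

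Genes that work with these factors or belong to their families were described from 7 lists. Together the lists hold 77 genes, of which 75 were measured, 18.7% (14 genes) were past the 1.5-fold limit on the lower side, against 15.6% of all measured genes, and 5.33% (4 genes) on the higher side, against 12.7%. Their median log2 difference was -0.20, beside -0.03 over all genes. The share on the lower side was near that of all genes. Among 12 complex partners of Gata2, Tal1, Lmo2 and Runx1, the median was -0.24 and 3 were past 1.5-fold lower. These were *Ldb1*, which joins Lmo2-bound complexes across enhancers and promoters (log2 difference -1.01), the Ets factor *Erg* (-1.01) and the E protein gene *Tcf12* (-0.78). *Ldb1* read 2.93 for p38α+/+ and 1.92 for the array labelled p38αΔ/Δ. *Tcf4*, another E protein gene, was the only partner past 1.5-fold higher (0.88), whereas its dimmer probe gave -1.29.

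Among 10 homeobox partners of Meis1 the median was -0.22, 1 was past 1.5-fold lower and 0 were past 1.5-fold higher. *Hoxa9*, a driver of HSC self-renewal, read 0.86 and -0.30, a log2 difference of -1.15, and *Hoxb4* had the highest difference at 0.23. The dimmer probe of *Hoxa9* gave -0.37. Among 9 corepressors used by Gfi1, Gfi1b and Evi1 the median was -0.21. The histone deacetylase gene *Hdac1* was the only one past the limit, at -0.68, and *Ctbp1*, a partner of Evi1, had the highest difference at 0.28. Of 13 measured paralogs, the median was -0.02 and 2 were past 1.5-fold lower. Under normexp with an offset of 50 neither was, a setting that left 5.26% of all genes past 1.5-fold lower and 2.51% higher. *Lmo1* had a log2 difference of -1.09, and *Meis2* was at least 5.52-fold lower, since it was detected on the p38α+/+ array alone. *Gata1*, the erythroid relative of *Gata2*, had the highest difference at 0.55 and read 3.34 and 3.89, opposite in sign to *Gata2*.

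Of 14 other transcription factors that HSCs use, 2 were past 1.5-fold lower and 0 past 1.5-fold higher, with a median of -0.23. The homeobox gene *Nkx2-3* had a log2 difference of -1.11, *Mllt3*, a self-renewal regulator, had -0.83, and *Hmga2* had the highest at 0.45. The dimmer probe of *Mllt3* gave -0.19 and that of *Hmga2* gave 1.38. With averaged probes 1 of the 14 was past 1.5-fold lower and 1 higher. The 12 factors of committed lineages had a median of 0.12, and 3 were past 1.5-fold in each direction, or 2 lower and 0 higher under normexp with an offset of 50. Those past 1.5-fold lower were *Cebpb* (-0.92), *Nfe2* (-0.87) and *Cebpe* (-0.80), of the myeloid and megakaryocytic lineages, and those past 1.5-fold higher were *Irf8* (1.43), *Pax5* (0.69) and *Tcf7* (0.63), of the monocytic, B and T lineages. Of 13 measured genes that textbooks name as targets of the 9 factors the median was -0.03. The cytokine gene *Csf1* (-1.22) and the inhibitor of E proteins *Id2* (-0.61) were past 1.5-fold lower and 0 were past 1.5-fold higher. These counts depended on the processing. Under normexp with an offset of 50 none was past the limit. With quantile normalization or averaged probes 2 were lower and 1 higher, under loess 3 and 1, and under normexp with an offset of 0 they were 1 and 2. The target *Hif1a* had 0.05 at its brightest probe, and its dimmer probe gave 2.29.

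**Figure D4:**
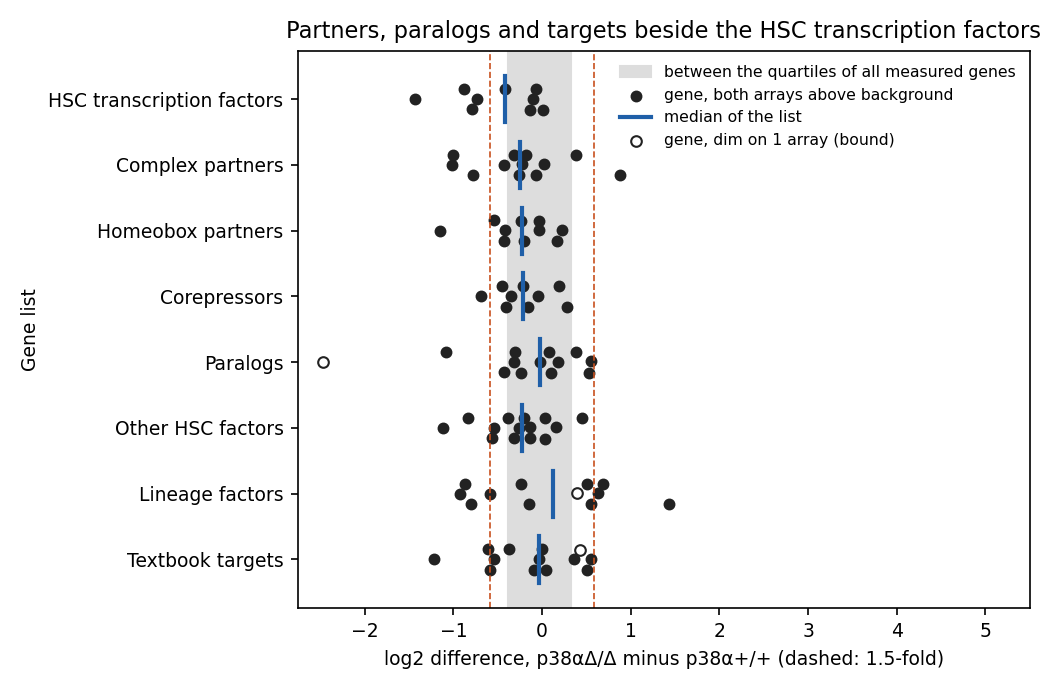
Each point is 1 measured gene at its brightest probe, placed by its log2 difference, p38αΔ/Δ minus p38α+/+, in rows for the 9 factors and the 7 related lists, with a bar at each median and open points for genes dim on 1 array. The median of the 9 factors is -0.42, those of the other lists run from -0.24 to 0.12, and the grey band runs between the quartiles of all measured genes.

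Genes that mark HSCs differed between the arrays too. All 10 HSC marker genes measured were detected on both arrays, and on the array labelled p38αΔ/Δ 3 were at least 1.5-fold lower, against 15.6% of all measured genes, and 0 higher, against 12.7%. Their median log2 difference was -0.50, beside -0.03 over all genes. Those past the limit were *Procr*, an HSC surface receptor (-1.22), and the genes of the gate proteins CD150 and Sca-1, *Slamf1* (-0.82) and *Ly6a* (-0.78). *Kit*, the gene of c-Kit, had -0.09. Under normexp with an offset of 50, 2 of the 10 markers were past 1.5-fold lower, against 5.26% of all genes. Of 7 measured genes that the gate leaves out, *Cd48* (1.37) and *Cd4* (0.74) were past 1.5-fold higher, *Ly6g* was at least 2.80-fold lower, and *Cd34* had -0.15. The dimmer probes of *Cd48* and *Cd4* gave 0.19 and -0.01.

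Genes of other blood cells were measured beside the factors, and summed levels below are linear, relative to the 75th percentile, with p38α+/+ first. A sum follows its brightest genes and need not hold for a whole list. Of all measured genes, 12.7% were at least 1.5-fold higher and 15.6% lower, the shares to set beside each count. Of 10 neutrophil genes, 8 were at least 1.5-fold higher and 1 lower, with summed levels of 9.02 and 26.5, the granule gene *Ltf* at 2.23 and *Elane* at -1.41. Of 8 B and plasma cell genes, 4 were higher and 0 lower, with summed levels of 3.88 and 18.9. These were *Jchain* (3.75), *Cd79a* (1.26), *Pax5* (0.69) and *Ms4a1*, at least 1.77-fold higher. *Jchain*, at log2 levels of 0.18 and 3.93, made up most of the sum on the array labelled p38αΔ/Δ. Of 6 measured T and NK cell genes, *Icos* (3.54), *Gzmb* (1.15), *Cd3e* (1.02) and *Lck* (0.62) were higher and *Zap70* (-4.43) was lower, with summed levels of 15.8 and 18.5. The dimmer probe of *Zap70* gave -0.03. *Cd3d* and *Cd3g*, which encode chains of the T cell receptor complex, were not detected above background on either array. Of 7 measured erythroid genes, *Slc4a1* (1.06) was higher and *Hbb-bt* (-1.10) lower, with summed levels of 11.3 and 14.9. Of 8 megakaryocyte genes, *Gp6* was 3.18-fold higher and 0 were past the lower limit, with *Ppbp* at 0.51, *Vwf* at -0.55 and summed levels of 76.2 and 71.3. The signal of *Gp6* was dim on the p38α+/+ array, and the dimmer probe of *Vwf* gave -1.26. Under normexp with an offset of 50, 1 megakaryocyte gene was lower and 0 higher, against 5.26% and 2.51% of all genes. Of 4 measured monocyte genes, *F13a1* was at least 5.66-fold higher and *Lyz2* (-0.96) was lower. *Cx3cr1*, dim on the array labelled p38αΔ/Δ, was 3.19-fold lower. *Csf1r* had 0.21 at its brightest probe, and its other probes gave -2.28 and 0.76. The summed levels of 29.6 and 34.0 were mostly those of *Csf1r*, which read 4.85 and 5.07 on the log2 scale. Of 5 measured endothelial and stromal genes, *Emcn* (-0.84) was lower and *Lepr* (0.38) had the highest difference, with summed levels of 6.15 and 5.73. *Cdh5*, *Col1a1*, *Ly6c2* and *Ccr2* gave no value, because they were not detected above background on either array or no probe carried their name. The part of these cells in the differences of the 9 factors was not tested.

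The calls of most factors held across the ways of processing tried, but several of these could hardly change them. All 12 probes were detected on both arrays, so no floor, no filter and detection on both arrays changed no value of a factor. Averaging probes could change only *Mecom* and *Runx1*. The authors' values and the median of detected probes shift each array by a constant. Only quantile normalization, loess and normexp could move *Gata2*, *Hlf* or *Gfi1* by more than such a shift. *Gata2* and *Hlf* were at least 1.5-fold lower under all 10 alternatives, with log2 differences from -0.79 to -0.64 and from -0.85 to -0.67. *Mecom* was past 1.5-fold under 9 of 10, all except the mean of its probes, and *Gfi1* under 9 of 10, all except normexp with an offset of 50. *Gfi1b*, *Meis1*, *Tal1*, *Lmo2* and *Runx1* were past 1.5-fold under none of the 10.

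**Figure D5:**
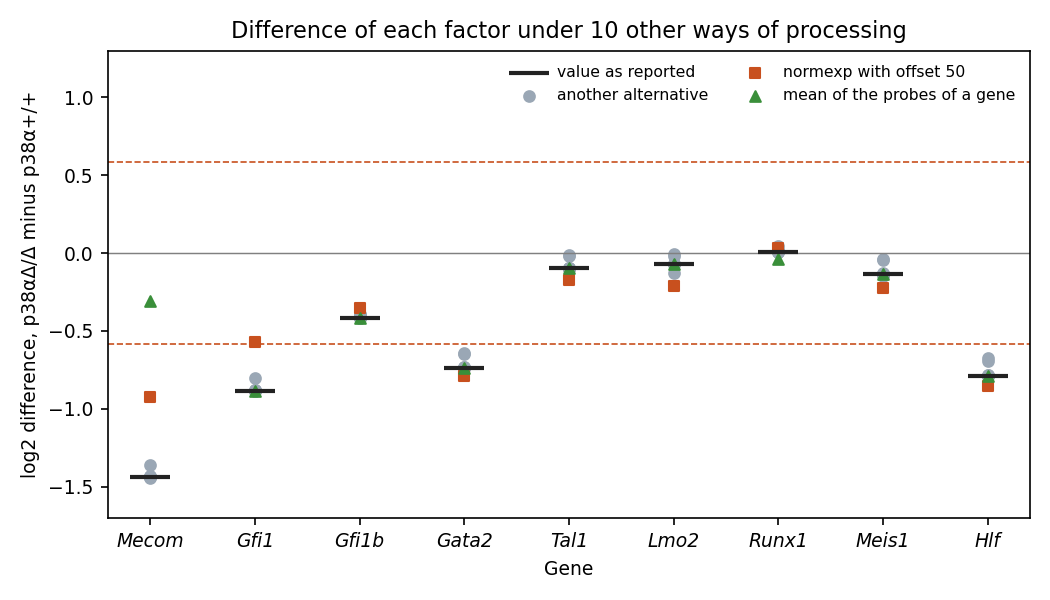
For each factor the black bar is the log2 difference as reported, p38αΔ/Δ minus p38α+/+, and the symbols are its values under 10 other ways of processing, with dashed lines at 1.5-fold. The green triangle of *Mecom* at -0.31 is the mean of its 3 probes, and the orange squares are normexp with an offset of 50, which brought *Mecom* to -0.93 and *Gfi1* to -0.57.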

How the data were processed

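LT-HSC RNA was labelled with Cy3 and hybridized to Agilent single-colour arrays, both on 1 slide. For each array the authors deposited the scanner intensity of each spot, which Agilent Feature Extraction 11.5.1.1 (submitters' processing notes) had corrected for background. They also deposited log2 values of 35795 probes. Each of those columns equalled the log2 signal minus 1 constant (7.16 for p38α+/+, 6.84 for p38αΔ/Δ) and was used as an alternative.

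Control spots and outlier spots were left out, repeated spots were averaged as log2 intensity, the 75th percentile of each array (7.16 and 6.85) was subtracted, and the brightest probe stood for a gene. Probe coordinates are the array design's (mm9). Names came from the files and a RefSeq table (57.1% of 55662 probes named). A gene was measured if detected well above background on either array (17201 genes). Where it was dim on 1 of them, the lowest detected signal of that array replaced a lower value, and the fold is then a lower bound. A dim signal above that lowest signal was kept as read. Technical errors combine the software's error of both spots. Repeated spots of a probe differed with a median SD of 0.09 and 0.10, or 0.13 for a difference. The number of arrays limits the precision. No spot was saturated.

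The 9 genes, the lists, the limit of 1.5-fold and the alternatives were chosen with earlier results of these data known. The 7 promoter motifs and the promoters and probe stretches to print were chosen after values were seen. Named genes were all 9 factors, *Mapk14*, each list's largest rise and fall among genes well above background on both arrays, and all members of counts of 5 or fewer. A few other list members were named after their values were seen. The largest rise of the HSC marker list is not reported here. Settings tried were no floor, no filter, a filter requiring detection on both arrays, averaging all probes of a gene, the table of authors' values, normexp with an offset of 50, loess between the arrays (span 0.3), the median of detected probes as the centre, and quantile normalization. Normexp with an offset of 0 was added after seeing the data. The calculation was tested on simulated data, which checks the arithmetic and holds no spread between mice. R 4.3.3, limma 3.58.1, Python 3.11.15, numpy 2.4.6, pandas 2.3.3 and matplotlib were used.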

Additional observations from a re-analysis of the deposited data

How the results depend on the processing

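Under 10 alternatives, several of which could hardly change these values, the median log2 difference of the 9 factors ran from -0.42 to -0.31. The number at least 1.5-fold lower was 3 or 4, with 0 higher under each. It was 3 with averaged probes and under normexp with an offset of 50, where 5.26% of all genes were at least 1.5-fold lower. The number of their probes at least 1.5-fold higher was 1 as reported and became 0 under loess between the arrays, normexp with an offset of 50 and normexp with an offset of 0. *Mapk14* ran from -0.09 to 0.03 and reached 1.5-fold under none. None of the 9 factors' values past 1.5-fold, by gene or by probe, changed sign under these alternatives. Values of single factors that moved by more than their technical error were *Mecom* at -0.93 and *Gfi1* at -0.57 with an offset of 50, which adds a constant to every signal and so moves dim ones most on the log scale, *Mecom* probe 3 at 0.32 with that offset, and *Mecom* at -0.31 as the mean of its probes. In a comparison added after seeing the data, the medians of the complex partners (-0.30 to -0.16), homeobox partners (-0.31 to -0.20), corepressors (-0.28 to -0.16) and other HSC factors (-0.28 to -0.15) kept their sign under the 10 alternatives, and those of the paralogs (-0.12 to 0.06), lineage factors (-0.14 to 0.23) and textbook targets (-0.13 to 0.06) did not. Counts past 1.5-fold in the lists changed most with an offset of 50. Over all genes the shares also fell with it, from 15.6% to 5.26% lower and from 12.7% to 2.51% higher. Under this offset paralogs went from 2 lower to 0, textbook targets from 2 lower to 0 and lineage factors from 3 lower and 3 higher to 2 and 0. HSC marker genes went from 3 lower to 2 and the genes of the proteins the gate requires from 2 lower to 1. Monocyte genes went from 2 lower to 0, B cell genes from 4 higher to 2 and T and NK cell genes from 4 higher to 2. Other HSC factors went from 2 lower to 1. The genes left out by the gate and the endothelial and stromal genes each went from 1 lower to 0. Erythroid genes went from 1 in each direction to 0, and megakaryocyte genes from 0 lower and 1 higher to 1 and 0. When all probes of a gene were averaged, complex partners went from 1 higher (*Tcf4*) to 0. With the same averaging, other HSC factors went from 2 lower and 0 higher to 1 and 1. The genes left out by the gate went from 2 higher to 1, textbook targets from 0 higher to 1 and erythroid genes from 1 higher to 2. Megakaryocyte genes went from 0 lower to 1 and endothelial and stromal genes from 1 lower to 2. No paired analysis was possible because each group has 1 array, and no replicate could be left out. Errors given here are technical, and differences between mice, sexes or sorts cannot be told apart from genotype.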
